A study of Mus musculus with 16 samples.

Results

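The Dlk1-Meg3 domain is an imprinted cluster of the distal mouse chromosome 12, described here through the methylation of its CpGs. Its members were the CpGs of mm9 that lay between 11 kb before the Dlk1 start and just beyond the Rtl1 gene, with the reads of both strands of a CpG summed. No methylation value was used to choose them. In all, 232 such CpGs were read in at least 1 of the 16 libraries, of 1320646 CpGs read in the whole series and of 2403 CpGs that the reference sequence holds in the domain. All 232 were a CG in the reference, 34 were read in every library, 18 in a single library, and 157 could be tested in at least 1 comparison.

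Reduced representation bisulfite sequencing (RRBS) was performed on E14 cells, a 129/Ola line of mouse embryonic stem cells (mESCs) kept in Serum + LIF. After bisulfite treatment, unmethylated cytosines are sequenced as thymine, and methylation is read as the percentage of reads in which the cytosine is kept. The study asked whether β-catenin, the effector of the Wnt pathway, bears on imprinted methylation during long culture and differentiation. It compared 8 conditions with 2 libraries each. YP-mESCs had been kept for about 14 passages and OP-mESCs for about 70. OP-S33Y #1 and OP-S33Y #2 are a pair of clones, made in YP-mESCs, that overexpress the S33Y form of β-catenin, which escapes degradation, and that were then cultured like OP-mESCs. mESC shCtrl and mESC shβcat #1 were made from YP-mESCs and carried a control hairpin or a hairpin against β-catenin. EB shCtrl and EB shβcat #1 were embryoid bodies (EBs) of the same cells at day 8 without LIF. Each S33Y line is 1 clone, 1 hairpin was profiled, and EBs mix several cell types, so that a change in a cell type's share and a change of methylation within cells cannot be told apart. The study calls the replicates of its mESC lines biological, and the labels give only replicate numbers. What separated replicates is therefore not further described. The p-values of CpGs and windows rest on read counts and on a spread between libraries that is shared over the genome. They do not measure the spread of the libraries at a single site. No expression was measured in these libraries, so neither the knockdown nor the cell types could be checked in them. The study itself reported lower β-catenin transcript and protein after silencing, by quantitative PCR and western blot.

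In this domain the parental chromosomes are used differently. Dlk1, a membrane protein related to Notch ligands, and Rtl1, a protein derived from a retrotransposon, are expressed from the paternal copy. Meg3, a long non-coding RNA, and the microRNAs that follow it are expressed from the maternal copy. The choice is set by an intergenic imprinting control region (ICR), here called the Meg3 ICR, which is methylated on the paternal chromosome from the sperm onwards, and the Meg3 promoter gains paternal methylation later. The parental alleles could not be separated in these data, so that a fully methylated and a fully unmethylated copy read as an intermediate level.

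The libraries had 18919219 to 40519010 reads on CpGs, and 1669 to 5182 of them lay in the domain, on 44 CpGs in OP-mESC replicate 2 and 205 in EB shβcat #1 replicate 1. Neighbouring CpGs of a fragment share reads and are not independent. No CpG was read only in the YP-mESC, OP-mESC and S33Y libraries, while 72 were read only in the shRNA libraries. The strands of a CpG disagreed at some sites. Of 56 domain CpGs with both strands in some library, 12 (21.4%) had strands that differed by over 50 percentage points in at least 1 library, against 10.5% of 351843 CpGs of the series. All 12 were the middle of the letters CCGG, which 29 of the 56 CpGs were. Such a disagreement could not be seen in the Meg3 ICR, where the 4 CpGs in CCGG were read on 1 strand each and the 4 CpGs read on both strands were not in CCGG. Bases filled in at a cut end during library preparation can also give a strand that reads 0% or 100%, and whether this was so at these CpGs was not tested.

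The Meg3 ICR spans chr12:110762703-110773093 in mm9, between Dlk1 and Meg3 and outside any annotated gene. Of its 197 reference CpGs, 9 were read, 8 of them in all 16 libraries. These 8 form runs of 3 and 5 CpGs, named run A and run B. The stretches below carry the ICR results. The CpG at 110766835, outside them, also enters the ICR levels of mESC shCtrl replicate 2 and EB shβcat #1 replicate 1. Over the 8 CpGs alone, these levels were 48.0% and 79.5%. The stretches are shown with the plus strand of mm9 in lower case and the CpGs read in all libraries in capitals. Run A lies 15.3 kb and run B 14.3 kb before the Meg3 start. The promoter stretch holds the only CpGs of the Meg3 promoter that were read in every library, 364 and 357 bases before that start.
Meg3 ICR run A, chr12:110763902-110764022: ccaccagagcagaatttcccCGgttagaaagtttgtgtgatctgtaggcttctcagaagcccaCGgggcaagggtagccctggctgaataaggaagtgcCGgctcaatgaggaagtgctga
Meg3 ICR run B, chr12:110764868-110764967: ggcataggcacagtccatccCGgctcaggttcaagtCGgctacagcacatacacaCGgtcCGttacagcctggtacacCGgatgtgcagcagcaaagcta
Meg3 promoter, chr12:110778827-110778875: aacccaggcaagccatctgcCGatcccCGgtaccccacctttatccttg
The letters TGCCGC, which the imprint-keeping factor ZFP57 is known to bind when methylated, were searched on both strands. The ICR held 10 matches, of which 8 lay beyond the last CpG read in all libraries, and the promoter held 1. None fell within run A or run B as printed, and the nearest was 22 bases from such a CpG. At least 1 match was found in 39.9% of 11292 stretches of chromosome 12 of the ICR's length, and as many as in the ICR in 0.03% of them. The data therefore sample the 5′ part of the ICR and not the part with most of these letters.

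In mESCs the Meg3 ICR was methylated at an intermediate level, and in EBs at a high level. Its level, the mean percentage of its CpGs, was 47.3% and 43.7% in the YP-mESC libraries and 22.8% and 37.3% in the OP-mESC libraries. OP-S33Y #1 stood at 47.1% and 52.1%, while OP-S33Y #2 had 40.4% and 43.2%. In the shRNA set it was 39.8% and 46.8% in mESC shCtrl and 40.3% and 41.9% in mESC shβcat #1. It reached 67.0% and 76.4% in EB shCtrl and 77.3% and 76.0% in EB shβcat #1. The 4 EB libraries therefore lay above all 12 mESC libraries, and the OP-mESC libraries below the other 10 mESC libraries. By condition the order ran from OP-mESCs (30% ± 10.2, SD, n = 2) through mESC shβcat #1 (41.1% ± 1.1), OP-S33Y #2 (41.8% ± 2.0), mESC shCtrl (43.3% ± 5.0), YP-mESCs (45.5% ± 2.6) and OP-S33Y #1 (49.6% ± 3.5) to EB shCtrl (71.7% ± 6.6) and EB shβcat #1 (76.7% ± 0.9). The libraries of neighbours in that order overlapped, except at the steps from OP-mESCs to mESC shβcat #1 and from OP-S33Y #1 to EB shCtrl. The reads behind a library's level numbered 174 in OP-mESC replicate 1, the fewest, to 458 in OP-S33Y #1 replicate 2, with at least 10 on each CpG.

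**Figure D1:**
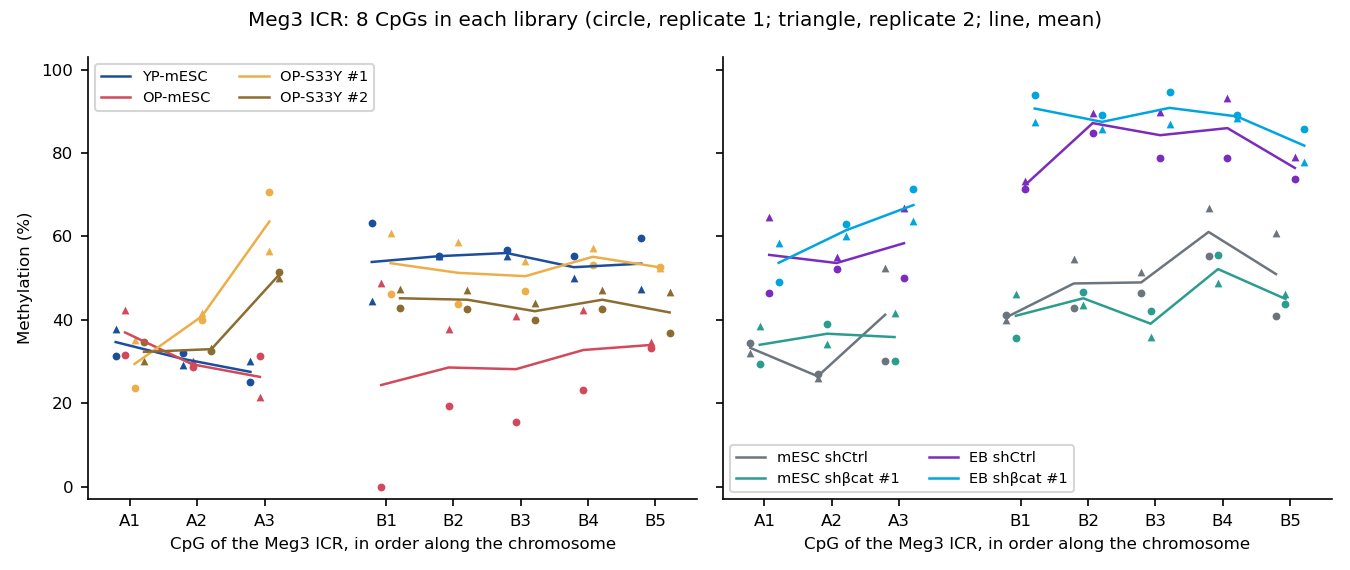
Methylation (%) of the 8 ICR CpGs in chromosome order, A1 to A3 in run A and B1 to B5 in run B, for the YP-mESC, OP-mESC and S33Y libraries (left) and the shRNA libraries (right); circles are replicate 1, triangles replicate 2 and lines the mean of both. EBs lie highest in run B, at 71.4% to 94.6%, and OP-mESC replicate 1 lies lowest there, from 0.0% to 33.3%.

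Among the domain's windows, the widest difference of any comparison was the gain of the ICR from mESCs to EBs. Between EB shCtrl and mESC shCtrl, 112 domain CpGs could be tested with a binomial model of their reads, and 11 were called, all higher in EBs, where a call needs a difference above 25 points as well as an adjusted p below 0.05. This is 9.82% of the domain's CpGs, beside 6.34% of all CpGs tested. In the cells with shβcat #1, 14 of 122 were called higher (11.5%) and 1 lower, beside backgrounds of 6.25% and 0.348%. On a grid of 1 kb windows with at least 3 CpGs, tested on summed reads with a quasi-binomial F test, 6 of 17 windows were called with shCtrl, beside 30.2% of all windows, and 6 of 14 with shβcat #1, beside 46.6%. Without the CpGs of unequal strands, 7 of 15 and 8 of 13 windows were called. The share over all windows was not counted with that filter, here or in the comparisons below, so these counts have no background. With shβcat #1 they include windows in Rtl1 that were lower in EBs, at -8.76 and -7.53 points. In the ICR, 4 of the 8 CpGs were called with shCtrl and 6 with shβcat #1.

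The ICR window, which holds 6 of the 8 CpGs, rose from 45.1% and 56.2% in mESC shCtrl to 75.3% and 86.4% in EB shCtrl, by 30.2 points (quasi-binomial adjusted p = 2.3e-13). With shβcat #1 it rose from 44.8% and 43.3% to 88.2% and 84.2%, by 42.15 points (quasi-binomial adjusted p = 5.6e-22). These were the highest differences among the domain's windows in both settings, and the EB libraries did not overlap the mESC libraries. Over the 8 CpGs the level rose by 27.8 points with shCtrl and by 36.7 with shβcat #1, and an exact permutation test of 2 libraries against 2 gave p = 0.33, the smallest it allows. Both strands rose. In run B the forward strand went from 47.1% and 47.5% to 78.6% and 93.3% with shCtrl, and the reverse strand from 46.2% and 60.9% to 78.9% and 85.4%. In run A the levels stayed lower, at 30.4% and 36.8% in mESC shCtrl and 49.5% and 62.1% in EB shCtrl.

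Single CpGs showed the same direction. The CpG at 110764923 was at 46.4% and 51.5% in mESC shCtrl and at 78.8% and 89.7% in EB shCtrl, a rise of 35.3 points (binomial adjusted p = 1.3e-05). With shβcat #1 it went from 42.2% and 35.9% to 94.6% and 87.0%, a rise of 51.7 points (binomial adjusted p = 1.3e-10). The CpG at 110764904 rose by 38.5 points with shCtrl (binomial adjusted p = 1.3e-06) and by 42.3 with shβcat #1 (adjusted p = 2e-07). At 110764888 the rise was called with shβcat #1, at 49.7 points (binomial adjusted p = 0.00053). All 4 EB libraries lay above all 4 shRNA mESC libraries at 7 of the 8 ICR CpGs. Over the domain this held at 23 of 88 CpGs (26.1%), beside 12.9% of the series. The reverse held at none of the 88, beside 18870 of 785825 CpGs of the series. The count of called CpGs rested in part on single libraries. It was 3 of the domain without EB shCtrl replicate 2, 7 without mESC shCtrl replicate 1, and 8 without mESC shβcat #1 replicate 2.

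Levels were also computed for 19 other ICRs of known coordinates. Of the 20, 19 had a level in the shRNA conditions, and the Rasgrf1 ICR had none in any condition. Over each library's own CpGs, the Meg3 ICR rose by 28.4 points from mESC shCtrl to EB shCtrl. There the other 18 ranged from -3.4 to 14.5 with a median of 4.5. With shβcat #1 it rose by 35.6 points, beside -16.9 to 16.5 and a median of 0.8 in the others. It ranked the highest in both. The H19 ICR, which is also methylated on the paternal chromosome, went from 88.0% to 95.1% with shCtrl and from 76.0% to 92.5% with shβcat #1. Over the conditions, the means with the highest correlation with those of the Meg3 ICR were those of the Snrpn ICR (Pearson's r = 0.90 over 8 conditions), the Igf2r ICR (0.72 over 7) and the Mest ICR (0.71 over 8). These values describe condition means only, and culture, library set and depth differ between the conditions. The Snrpn ICR moved over a narrower range, from 34.1% to 44.8%.

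**Figure D2:**
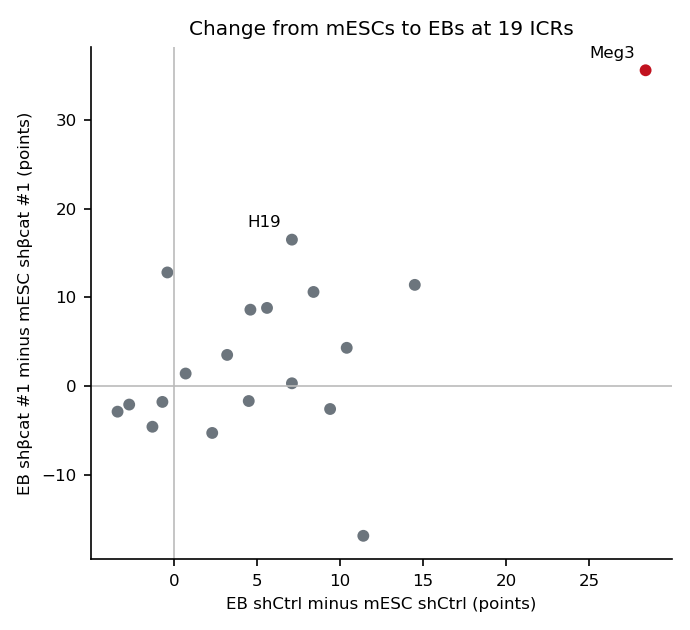
Difference in methylation level between EBs and mESCs (percentage points) with shCtrl (horizontal) and shβcat #1 (vertical), 1 point for each of 19 ICRs, with the Meg3 ICR in red. The Meg3 ICR, at 28.4 and 35.6 points, lies apart from the other 18, which reach 14.5 and 16.5.

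Long culture was compared in OP-mESCs and YP-mESCs. Of 35 domain CpGs tested, 3 were called, all lower in OP-mESCs (8.57%, beside a background of 2.47%), and none of these lay in the ICR. Of 6 windows, 3 were called (background 25.3%), all lower in OP-mESCs. The ICR window was 1 of them. It held 54.5% and 49.1% methylation in YP-mESCs and 20.8% and 40.1% in OP-mESCs, a fall of 21.3 points (quasi-binomial adjusted p = 8.6e-05). The groups did not overlap, and the OP-mESC libraries differed by nearly as much from each other, and without OP-mESC replicate 1 the difference was -11.7 points (quasi-binomial adjusted p = 0.034). Run A held 29.5% and 32.4% in YP-mESCs and 30.5% and 31.2% in OP-mESCs. The difference lay in run B, which went from 58.0% and 50.5% to 18.2% and 40.9%. The study also measured the ICR of this domain, which it calls Ig-DMR, by restriction digestion and pyrosequencing. It reported no change there with passage. Which CpGs those assays read was not compared with the CpGs read here.

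The strands of run B gave different pictures of this fall. On the reverse strand, over 4 CpGs, the libraries read 54.1% and 59.3% in YP-mESCs and 33.3% and 32.7% in OP-mESCs, so that both OP-mESC libraries lay below both YP-mESC libraries by 23.7 points on average. The forward strand was read at a set of 4 CpGs that shares 3 with the reverse strand. On it, OP-mESC replicate 1 read 0.0% at all 4 CpGs, with 11 reads at each, while replicate 2 read 46.6%, between the 60.8% and 43.1% of the YP-mESC libraries. Over the 3 shared CpGs the reverse strand read 52.3% and 63.3% in YP-mESCs and 33.3% and 32.1% in OP-mESCs, and the forward strand 60.0% and 42.6% against 0.0% and 45.8%, so that the pattern was the same. The value of OP-mESC replicate 1 in run B therefore rests on few reads. The other ICRs with a level in both conditions gave a median difference of -8.6 points, from -62.8 to 5.9, and the Meg3 ICR, at -15.4, ranked in the middle of the 12. ICRs without a level in OP-mESC replicate 2 are not among the 12. Of these, Gpr1 read 0.0%, H13 0.3%, Peg10 0.3%, Igf2r 1.7% and Herc3 22.6% in OP-mESC replicate 1. Their YP-mESC means were 36.1%, 25.5%, 32.7%, 44.8% and 51.0%. Nnat read 4.4% in OP-mESC replicate 1 and 72.8% in YP-mESC replicate 2. The rank therefore leaves out ICRs with low values.

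**Figure D3:**
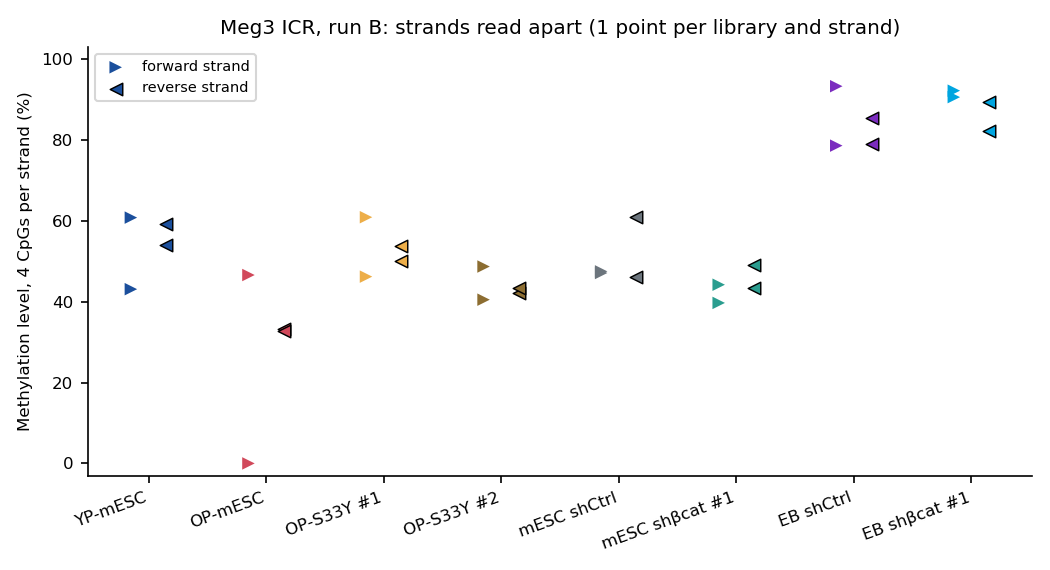
Methylation level (%) of run B with the forward strand (triangles pointing right) and the reverse strand (outlined, pointing left) read apart, over 4 CpGs each of which 3 are shared, 1 point per library and strand, by condition. In OP-mESCs the reverse strand lies at 33.3% and 32.7% while the forward strand is split between 0.0% and 46.6%, and in EBs both strands lie at 78.6% or above.

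The S33Y clones were compared with YP-mESCs and with OP-mESCs, and these comparisons share their control libraries. Against YP-mESCs, none of 69 domain CpGs was called in OP-S33Y #1 (background 0.315%), where 7 had an unadjusted p under 0.05 and Fisher's exact test on summed reads called 0, and none of 11 windows was (9.72%). In OP-S33Y #2, 1 of 75 CpGs was called, lower (background 0.743%), and 2 of 11 windows were (11.7%), all outside the ICR, or 0 CpGs and 1 of 10 windows without the CpGs of unequal strands. The ICR window differed from YP-mESCs by 1.92 points in OP-S33Y #1 (quasi-binomial adjusted p = 0.85) and by -6.8 in OP-S33Y #2 (adjusted p = 0.29). Against OP-mESCs, 2 of 44 CpGs were called higher in OP-S33Y #1 (background 2.43%) and 3 of 6 windows (32.4%), or 1 CpG and 2 of 4 windows without the CpGs of unequal strands. Its ICR window, at 51.0% and 56.4%, lay 23.25 points above OP-mESCs (quasi-binomial adjusted p = 7.5e-06), and 13.6 points above them without OP-mESC replicate 1 (adjusted p = 0.0062). In OP-S33Y #2, none of 44 CpGs was called (background 0.761%), with 4 at an unadjusted p under 0.05 and 0 by Fisher's exact test, and none of 6 windows was (18.1%). Its ICR window, at 43.2% and 46.8%, lay 14.5 points above OP-mESCs (quasi-binomial adjusted p = 0.061), and the difference was 24.2 points without OP-mESC replicate 2 (adjusted p = 0.0012) and 4.92 without OP-mESC replicate 1 (adjusted p = 0.55). The call counts of the S33Y clones also rested on single libraries, with 0 CpGs called in OP-S33Y #1 against OP-mESCs without OP-S33Y #1 replicate 2 and 4 without OP-mESC replicate 2, and with 0 in OP-S33Y #2 against YP-mESCs without YP-mESC replicate 2 or OP-S33Y #2 replicate 2.

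Run A of the S33Y clones differed from that of the other mESCs on 1 strand. Its level was 44.8% and 44.5% in clone OP-S33Y #1 and 39.5% and 37.8% in clone OP-S33Y #2, above the 29.5% and 32.4% of YP-mESCs. On the reverse strand, over 2 CpGs, it was 67.6% and 56.5% in clone #1, 44.6% and 46.7% in clone #2, and 27.1% and 25% in YP-mESCs. On the forward strand it was 26.3% and 32.5% in clone #1 and 31.7% and 28.8% in clone #2, below or among the 32.4% and 36.8% of YP-mESCs, so that the direction turned with the strand. The strands share 1 CpG of run A, 110763965, where the reverse strand read 64.7% and 56.5% in clone #1 and 29.2% and 20% in YP-mESCs, and the forward strand 28.9% and 29.8% against 33.3% and 35.7%. No CpG of run A was called in these comparisons.

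Silencing of β-catenin left the ICR with no called CpG. In mESCs, none of 114 domain CpGs was called with shβcat #1 (background 0.111%), with 5 at an unadjusted p under 0.05 and 0 by Fisher's exact test, and 1 of 17 windows was called (2.27%), between Meg3 and Rtl1. In EBs, none of 126 was called (0.0883%), with 13 at an unadjusted p under 0.05 and 0 by Fisher's exact test, and none of 16 windows was (6.79%). The ICR window differed by -6.59 points in mESCs (quasi-binomial adjusted p = 0.65) and by 5.33 in EBs (adjusted p = 0.64). Whether the effect of shβcat #1 differed between mESCs and EBs was tested with an interaction term. None of 88 domain CpGs passed an adjusted p of 0.05 (background 0.115%), 11 had an unadjusted p under 0.05, and the lowest adjusted p in the ICR was 0.96.

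The Meg3 promoter, taken from 2 kb before the Meg3 start to 1 kb after it, was read at 19 of 95 reference CpGs. Most of these were read in a few shRNA libraries, and 2 in all libraries. The CpG 364 bases before the start, at 110778847, read 32.9% and 35.5% in YP-mESCs, 43.5% and 45.2% in OP-mESCs, 48.1% and 41.8% in clone OP-S33Y #1, and 63.2% and 36.8% in clone OP-S33Y #2. In the shRNA set it read 38.8% and 42.9% in mESC shCtrl, 45.8% and 48.8% in mESC shβcat #1, 52.6% and 53.7% in EB shCtrl, and 57.1% and 53.4% in EB shβcat #1. The EB libraries lay above the shRNA mESC libraries there. At the CpG 357 bases before the start, at 110778854, they overlapped, with 33.3% to 50% in shRNA mESCs and 36.8% to 64.7% in EBs. The window before the start rose by 14.8 points with shCtrl, from 40.7% and 41.4% to 57.7% and 54.1% (quasi-binomial adjusted p = 0.085), and by 4.87 with shβcat #1 (adjusted p = 0.61), so neither passed. No CpG of the promoter was called in any comparison. OP-mESCs, at 43.5% and 45.2%, lay above YP-mESCs, at 38.2% and 37.2%, over the 2 shared CpGs, by 6.6 points and opposite to the ICR. At 110778847 OP-mESCs had reverse reads only, while YP-mESCs also had forward reads, at 27.8% and 30.8%. On the reverse strand YP-mESCs read 37.5% and 38.9% there, still below OP-mESCs. At 110778854 the groups overlapped, with 43.6% and 38.9% in YP-mESCs. The OP-mESC libraries had 23 and 31 reads at each of these CpGs.

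The Meg3 transcript beyond the promoter was read at 20 of 422 CpGs, most of them in its exons. The window 5 kb into the gene rose in EBs with shCtrl, from 55.2% and 66.3% to 80.8% and 87.7%, by 23.5 points (quasi-binomial adjusted p = 0.0023). Over each library's own CpGs among the 6 read there, shRNA mESCs lay at 52.0% to 71.7% and EBs at 81.1% to 92.9%. YP-mESCs read 54.1% and 58.5%, and the S33Y libraries 40.5% to 49.6%. The 1 OP-mESC library that covered it read 18.8%, with 10 to 16 reads at each CpG. Its CpGs include 110784274, which neither YP-mESC library read, so these levels are not of the same sites. With shβcat #1 the CpG at 110784119 was called, from a mean of 56.9% to 84.7%, by 27.8 points (binomial adjusted p = 0.029). Further into the gene, 8.7 kb from its start, the levels were 85.0% to 95.1% in shRNA mESCs and 86.6% to 94.0% in EBs.

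**Figure D4:**
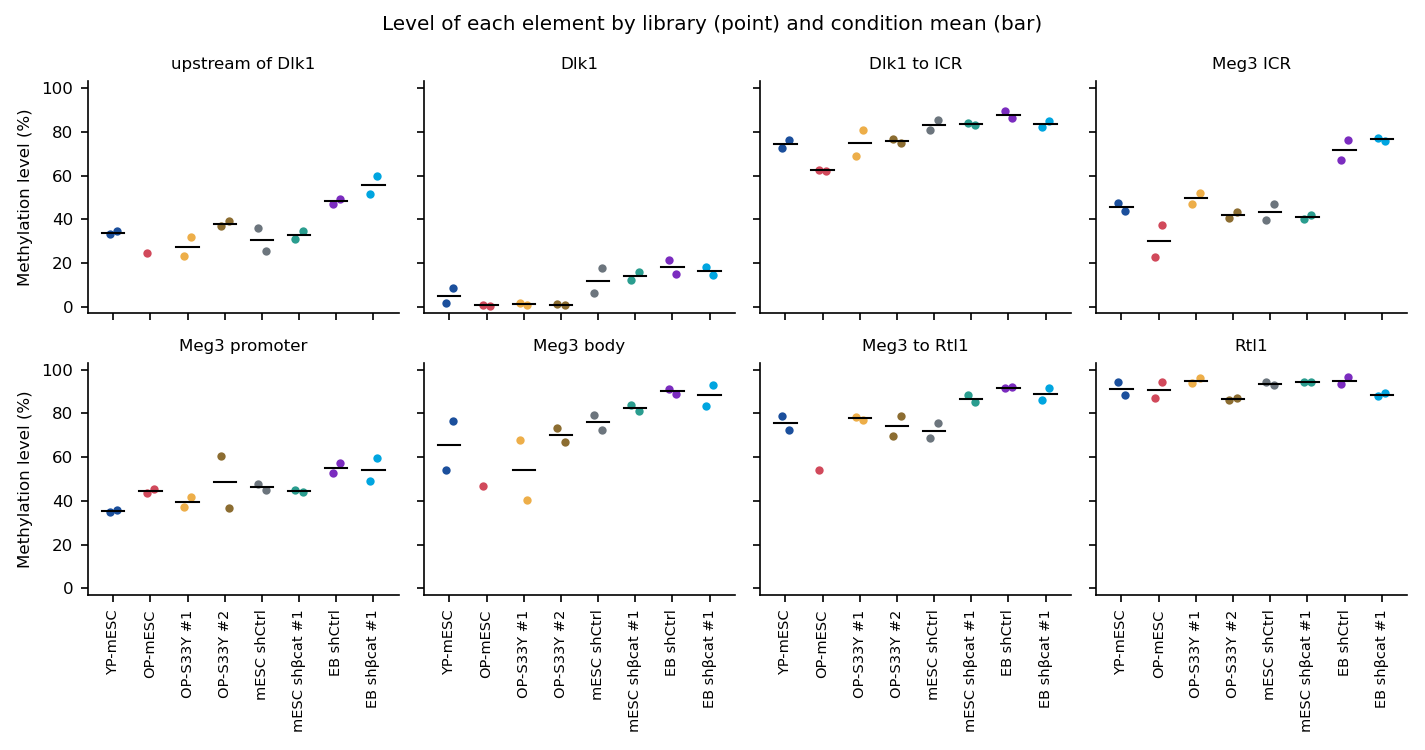
Methylation level (%) of 8 elements of the domain in each library (points) and the mean of both replicates (bars), each library over its own CpGs. The ICR stands at 67.0% or more in EBs and at 52.1% or less in mESCs, while Rtl1 lies above 86% and Dlk1 below 22% throughout.

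Dlk1 was the least methylated element. The CpG-dense start of the gene, with annotated UTR, coding and intron bases, was read at 50 CpGs, of which a library held 18 to 47, so that levels over each library's own CpGs are not of the same sites. Over the 8 CpGs read in every library, the mean was 1.0% to 3.6% in the YP-mESC, OP-mESC and S33Y libraries, 5.3% to 8.4% in shRNA mESCs and 7.9% to 14.5% in EBs. Without the 1 of these with unequal strands, it was 0.6% to 2.7%, 3.7% to 5.2% and 5.1% to 9.7%, so that mESC shCtrl and EB shCtrl overlapped. In the window there, tested on the CpGs common to the libraries, the level went from 7.42% and 5.93% to 7.72% and 13.1% with shCtrl, by 3.73 points (quasi-binomial adjusted p = 0.029), and by 4.93 with shβcat #1 (adjusted p = 3.6e-05). Within the gene, 4 CpGs were among those whose strands differed. At 110691550 the reverse strand read 90.9% to 100.0% in 6 shRNA libraries while the forward strand read 0.0% to 8.3%, and the call of this CpG as lower in EB shβcat #1, by 33.6 points (binomial adjusted p = 0.031), depends on the mix of strands. The CpG at 110692177, in an intron, rose from a mean of 13.5% to 56.3% with shβcat #1 (binomial adjusted p = 7e-05). The EB libraries read 35.7% and 76.9% there. Among shRNA libraries only EB shβcat #1 replicate 2 had forward reads at this CpG, at 100.0%. On the reverse strand alone the mean rose from 13.5% to 49.1% (binomial adjusted p = 0.0085). A later coding exon, 81.2 kb before Meg3, was methylated at 82.3% to 96.7% in the 6 shRNA libraries that covered it and at 63.6% in YP-mESC replicate 2.

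The DNA before Dlk1 gained methylation in EBs. In the window about 2 kb to 3 kb before the gene, 17 CpGs went from 15.8% and 18.0% in mESC shCtrl to 31.3% and 29.0% in EB shCtrl (13.3 points, quasi-binomial adjusted p = 3.9e-07). With shβcat #1, 12 CpGs went from 20.8% and 18.4% to 38.4% and 34.3% (16.7 points, quasi-binomial adjusted p = 8.2e-10). The window 2 kb further away rose from 70.2% and 67.2% to 88.8% and 93.0% with shCtrl (22.2 points, quasi-binomial adjusted p = 1.6e-07). It rose by 12.7 points with shβcat #1 (quasi-binomial adjusted p = 0.0057) and was 13.6 points lower in OP-S33Y #2 than in YP-mESCs (adjusted p = 0.014). All 4 EB libraries lay above all 4 shRNA mESC libraries at 10 of 19 CpGs before Dlk1, and at none of 9 in Dlk1, beside 12.9% of the series. With 9 CpGs, a count of none is not far from that share. The named CpGs of this stretch with the widest changes were 110686614 with shCtrl (29.3 points, binomial adjusted p = 0.028) and 110688736 with shβcat #1 (29.7 points, adjusted p = 0.019).

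The long stretch from Dlk1 to the ICR was highly methylated, and held the CpGs called in OP-mESCs. Over 11 shared CpGs its level was 75.4% and 77.4% in YP-mESCs and 62.0% and 62.2% in OP-mESCs, a difference of -14.3 points. The CpG at 110735082 read 78.6% and 100.0% in YP-mESCs and 0.0% and 39.7% in OP-mESCs (binomial adjusted p = 3.8e-05). Its strands were read unequally: the reverse strand, covered in OP-mESCs and OP-S33Y #2 alone, was at 0.0% in all 4 libraries, and the forward strand of OP-mESC replicate 2 was at 82.1%. The CpG at 110735129 fell by 26.7 points (binomial adjusted p = 0.00024) and is also among those with unequal strands. The CpG at 110733564, read on 1 strand, went from 79.1% and 71.0% to 50% and 36.4% (binomial adjusted p = 0.032). Without the CpGs of unequal strands, this last call was the only 1 of the domain between OP-mESCs and YP-mESCs, the difference of the stretch was -8.7 points, and the window of 110733564 stayed called (-16.4 points, quasi-binomial adjusted p = 0.014) while that of 110735082 could not be tested. The ICR window lost no CpG to this filter, which therefore says nothing about it.

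Within the same stretch, a run of 4 CpGs from 110737896 onwards was of intermediate level in mESCs. Its first CpG, the CpG at 110737896, rose from a mean of 55.3% to 85.5% with shCtrl (binomial adjusted p = 0.0032) and from 52.5% to 82.5% with shβcat #1 (adjusted p = 0.0045). The mean over the stretch moved by 4.2 points with shCtrl and by -0.1 with shβcat #1. At 3 of the 34 CpGs read in every library, the 8 shRNA libraries did not overlap the other 8, beside 6.22% of 329078 CpGs of the series. At 110743885 the shRNA libraries read 83.3% to 100.0% and the others 46.8% to 65.7%. At 110743933 they read 92.5% to 100.0% and 29.4% to 46.0%. Both are among the CpGs of unequal strands. At 110743885 the forward strand read 89.3% to 96.2% in the other 8 libraries and 83.3% to 100.0% in the shRNA libraries, and only the other 8 had reverse reads, at 0.0%. At 110743933 the reverse strand read 75.0% to 100.0% in the other 8 libraries, while the forward strand read 0.0% to 3.6% there and 93.8% to 100.0% in the 6 shRNA libraries that covered it. At 110691814, in a UTR exon of Dlk1, the shRNA libraries read 13.5% to 30.8% and the others 0.0% to 2.4%. Hairpin cells and the other cells were never compared within a set of libraries, so that cells and libraries cannot be told apart here.

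Between Meg3 and Rtl1 the reads clustered 44.9 kb after the Meg3 start, outside any gene, most of them between the microRNA genes Mir337 and Mir540. The window there went from 60.2% and 68.5% in mESC shCtrl to 91.2% and 90.2% in EB shCtrl, by 26.4 points (quasi-binomial adjusted p = 2.1e-10). With shβcat #1 it went from 84.4% and 75.1% to 85.7% and 91.1%, by 8.66 points (quasi-binomial adjusted p = 0.034). In mESCs it was the only window called between the hairpins, 15.4 points higher with shβcat #1 (quasi-binomial adjusted p = 0.0088), and it was not called without mESC shCtrl replicate 1 or without mESC shβcat #1 replicate 1. The CpG at 110824186 rose by 40.9 points from mESC shCtrl to EB shCtrl (binomial adjusted p = 0.00014), that at 110824864 by 37.5 (adjusted p = 0.0024) and that at 110824219 by 33.3 (adjusted p = 0.0074). In the 1 OP-mESC library that covered it, the same element was at 54.3%, beside 78.7% and 72.6% in YP-mESCs.

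Rtl1 was read at 30 of 253 CpGs and was highly methylated where it was read, with levels of 86.1% to 96.6% in the 16 libraries. These CpGs lay at 110827812 to 110832890, in the 3′ part of this minus-strand gene. Its start, at 110838540, was not read. Over each library's own CpGs, the run of 16 nearest the gene's end read 76.8% and 77.0% in OP-S33Y #2. Its body holds microRNA genes on the opposite strand, of which Mir431 and Mir433 held read CpGs, at 1 and 5 sites. The 5 CpGs of Mir433 had means of 82.3% to 98.7% over the 15 libraries that covered them. From mESCs to EBs the level of Rtl1 went from 95.3% and 93.4% to 93.8% and 96.6% with shCtrl. With shβcat #1 it went from 94.6% and 94.8% to 88.7% and 89.2%, a difference of -5.7 points. The window from 110831001 was called (-7.53 points, quasi-binomial adjusted p = 0.0024), and those from 110829001 (adjusted p = 0.12) and 110830001 (adjusted p = 0.056) were not. In EBs the level was 6.3 points lower with shβcat #1 than with shCtrl, without overlap. The window from 110831001 differed there by -6.71 points (quasi-binomial adjusted p = 0.07, or 0.037 without the CpGs of unequal strands). No CpG of Rtl1 was called in any comparison. The microRNA Mir673 held 1 read CpG, at 87.9% to 100.0% in 7 shRNA libraries, and the other annotated genes of the domain, which are Mir1906-1, Mir770, Gm17639, Mir493, Mir337, Mir540, Mir665, AC152063.2, AC152063.3, Mir127, Mir434, Mir432 and Mir136, held none.

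**Figure D5:**
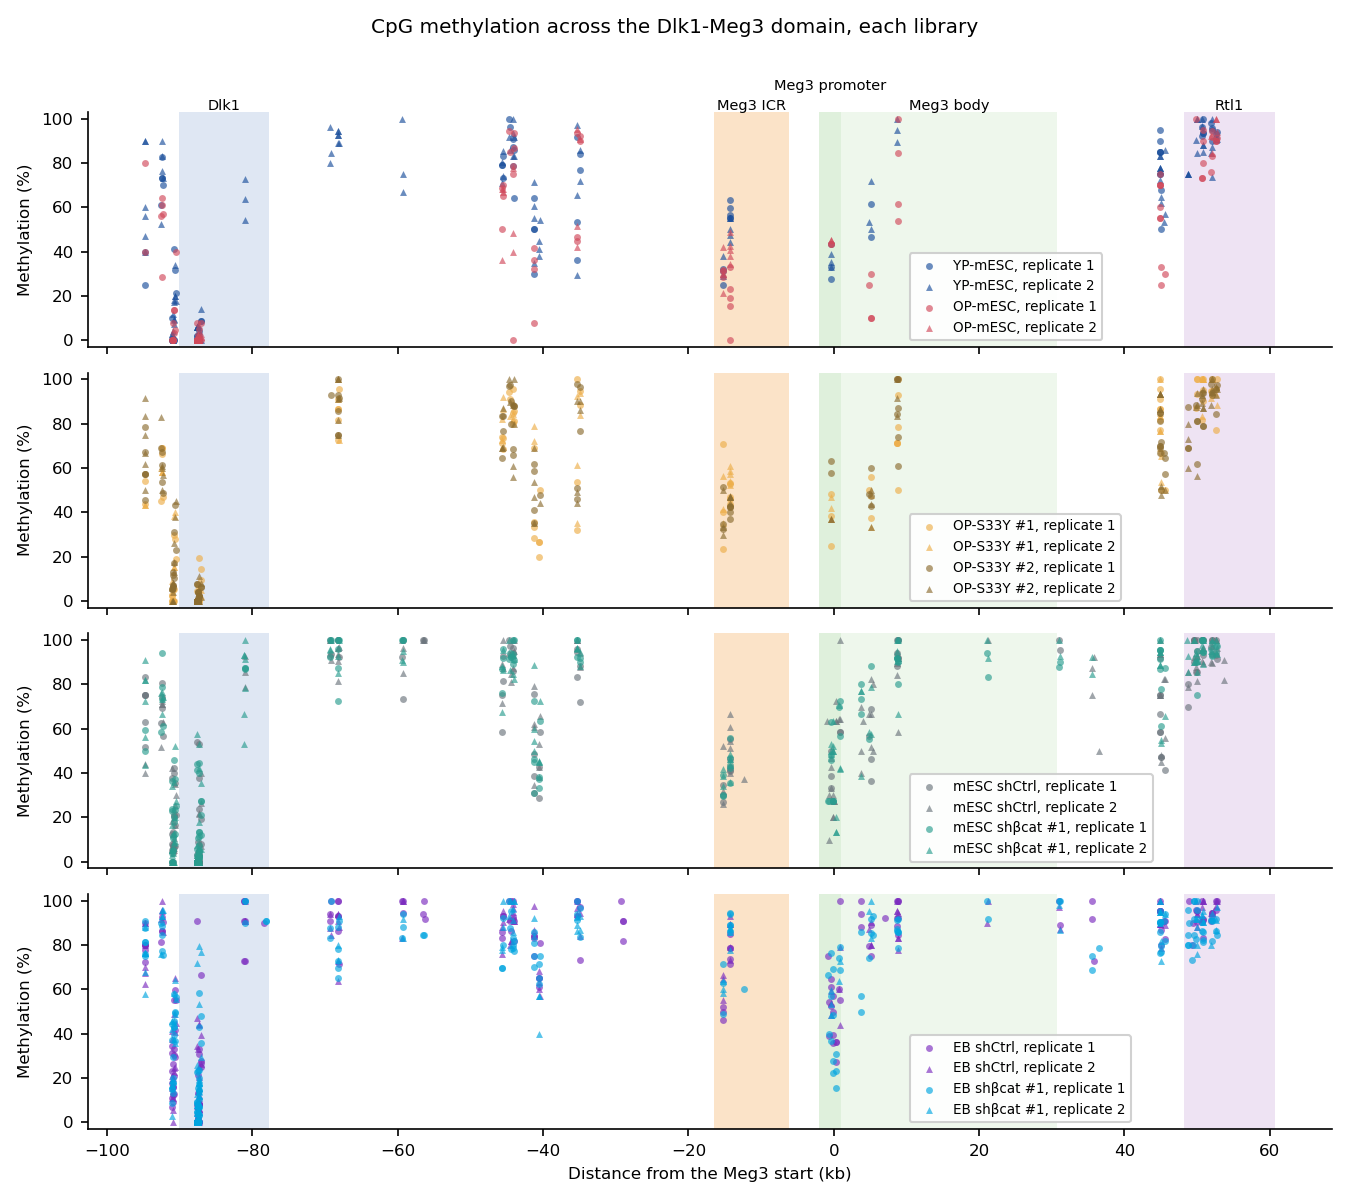
Methylation (%) of every read CpG by its distance from the Meg3 start (kb), in 4 panels of 2 conditions each, with circles for replicate 1 and triangles for replicate 2. Shading marks Dlk1 with 2 kb before it, the Meg3 ICR, the Meg3 promoter and body, and Rtl1; the start of Dlk1 lies lowest, Rtl1 among the highest, and the ICR is higher in the bottom panel, that of EBs, than in the others.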

How the data were processed

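RRBS libraries of 16 mouse E14 samples were used, 2 for each of 8 conditions. According to the processing notes, the authors used CASAVA 1.8.2, Trim Galore 0.2.8 and Bismark 0.7.9 on mm9. Which enzyme cut the DNA, and whether duplicates were removed, was not given in the sources used here. The deposited files give, for each cytosine of a CpG, the read count (coverage) and the percent of reads with C or T, with at least 10 reads per cytosine, so that CpGs below that depth are missing. Methylated reads were recovered from count and percent, and the 2 strands of a CpG were summed.

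Each CpG read in all 4 libraries of a comparison was tested with a binomial model whose overdispersion was shared by all CpGs, with a likelihood-ratio chi-square and Benjamini-Hochberg adjustment over all CpGs. Calls needed a difference above 25 points and an adjusted p below 0.05. Windows of 1 kb with at least 3 CpGs were tested with a quasi-binomial F test over all windows. Levels of elements are means over CpGs, compared with a two-sided exact permutation test whose smallest p is 0.33. For the difference in effect of the hairpin between EBs and mESCs, an interaction term was fitted in the CpG model. Genes are those of GENCODE mouse M1. The code was checked on simulated data and ran in Python 3.11.15 with numpy 2.4.6, scipy 1.17.1 and numba 0.67.0.

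Named were Dlk1, Meg3, Rtl1 and the other annotated genes, up to 3 called CpGs per element with the widest difference, and the H19 and Rasgrf1 ICRs. The 3 ICRs whose condition means had the highest correlation with those of the Meg3 ICR were also named. The domain, lists and tests were chosen with earlier results of these data known. The ICR coordinates are those of the study.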

Additional observations from a re-analysis of the deposited data

Results flagged for a closer look

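Between Meg3 and Rtl1, the difference of shβcat #1 from shCtrl was 17.0 points in mESCs (9 CpGs) and -1.8 points in EBs (11 CpGs), -18.8 points apart. The hairpins did not overlap in either stage, but in EBs they nearly met, at 89.0% and 91.7% against 92.3% and 91.9%. Over the 9 CpGs of the window there, they overlapped in EBs, at 85.7% and 91.1% against 91.2% and 90.2%. In run B of the Meg3 ICR, the difference was -5.6 points in mESCs and 6.7 points in EBs, 12.3 points apart. The hairpins nearly met in both stages of run B. They read 44.8% and 44.1% against 45.4% and 54.7% in mESCs, and 90.5% and 85.3% against 77.5% and 84.9% in EBs. Neither difference of an element was itself tested. The interaction term of single CpGs gave a lowest adjusted p of 0.45 over 9 CpGs in the first and of 0.96 over 5 CpGs in the second.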

How the results depend on the processing

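The rise of the ICR window in EBs and its fall in OP-mESCs kept their direction and their side of the threshold under every alternative run, from -30.95 to -11.72 points in OP-mESCs with 1 library left out. Counts of called CpGs and windows moved more, and the cause was not tested. Same-numbered libraries did not deviate together (correlations of -0.034 to 0.053), so that the replicate numbers were not taken as pairs. With the replicate block, 5 CpGs were called between OP-mESCs and YP-mESCs, 1 CpG and 1 window between OP-S33Y #2 and OP-mESCs (ICR window 14.54 points, adjusted p = 0.014, by the quasi-binomial F test), and 2 windows between the hairpins in EBs. Fisher's exact test called 5 CpGs between OP-mESCs and YP-mESCs.

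Without the CpGs of unequal strands, an alternative chosen after seeing the data, against YP-mESCs 1 CpG was called in OP-mESCs, and 0 CpGs and 1 window in OP-S33Y #2, 1 CpG between OP-S33Y #1 and OP-mESCs, and 1 window between the hairpins in EBs, and the difference of Dlk1 between OP-mESCs and YP-mESCs turned to 0.1 points. With at least 5 CpGs, 1 window was called in OP-mESCs against YP-mESCs and 1 in OP-S33Y #1 against OP-mESCs. At a minimum of 20 reads, the called windows were 1 in OP-mESCs, 1 in OP-S33Y #1 and 0 in OP-S33Y #2 (each against YP-mESCs), 1 in OP-S33Y #1 against OP-mESCs, 0 between the hairpins in mESCs, 1 in EBs and 3 from mESC shCtrl to EB shCtrl, the called CpGs were 0 between OP-S33Y #1 and OP-mESCs and 5 from mESC shCtrl to EB shCtrl, and the ICR of OP-S33Y #1 differed from YP-mESCs by -0.4 points. With the strands kept apart, or with the overdispersion of CpGs of intermediate methylation (added after seeing the data), 1 CpG was called between OP-S33Y #1 and OP-mESCs. With no minimum difference, 19 and 26 CpGs were called from mESCs to EBs with shCtrl and shβcat #1.

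Leaving out 1 library gave 1 to 4 CpGs and 2 to 5 windows in OP-mESCs and 0 to 1 and 0 to 2 in OP-S33Y #2, both against YP-mESCs, 0 to 4 and 2 to 4 between OP-S33Y #1 and OP-mESCs, and 0 to 1 and 0 to 3 between OP-S33Y #2 and OP-mESCs, where the ICR window ranged from 4.92 to 24.16 points. It gave 0 to 1 windows between the hairpins in mESCs, 0 to 1 CpGs and 0 to 1 windows in EBs, and 3 to 14 and 8 to 14 CpGs from mESCs to EBs with shCtrl and shβcat #1. A lone library was assumed to vary like the others. Directions that turned were those of Meg3 beyond its promoter in OP-S33Y #2 against YP-mESCs (4.7 points over each library's own CpGs) and in EB shβcat #1 against mESC shβcat #1 (-0.5 to 24.4 with 1 library left out, the first without EB shβcat #1 replicate 2). Between the hairpins in EBs, Dlk1 turned to -1.9 and the Meg3 promoter to -0.8 points over each library's own CpGs, and the promoter to -6.0 over the CpGs common to all libraries. On the forward strand alone, run A turned to -5.2 and -4.3 points in OP-S33Y #1 and #2 against YP-mESCs, and to -5.6 and -4.8 against OP-mESCs.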
